A study of Homo sapiens with 2 samples.

Results

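Dense clusters of ChIP-seq peaks were examined on chromosomes 1 to 22 and on the unplaced or unlocalized contigs of the human genome. They came from CAL27 cells, an established line from a cancer of the tongue, which carried myc-tagged KLF7 from a lentivirus. KLF7 is a zinc-finger transcription factor of the Krüppel-like family. The series holds 1 library precipitated with an antibody labelled Myc and 1 input library from the same transduced cells, with no replicate and no cells without myc-KLF7. The tag is a stretch of human MYC, so fragments held by the tagged protein and by MYC itself cannot be told apart.

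Members were chosen by measured peak positions. Peaks were sorted, neighbours were joined where the next start lay at most 100000 bp after the previous end, and groups of 5 or more were kept. This gave 29 clusters with 280 peaks, out of 1833 peaks on these sequences (15.3%, Wilson 95% interval 13.7 to 16.99%) and 1900 peaks in all. Of the clusters, 25 lay on 12 chromosomes and 4 on contigs, and the 4 contig clusters held 41 of the 46 contig peaks. A cluster held 5 to 38 peaks (median 8) over 12.7 to 471.6 kb (median 180.5 kb). The largest gap inside a cluster was 98841 bp, and the nearest peak left out of one lay 107126 bp away. The 6 clusters of 5 peaks, just inside the limit, had a median pileup (ChIP fragments over the summit) of 28 and a median fold enrichment over the local background of 4.96. The 16 groups of 4 peaks just outside it had 19 and 4.74, but 1 of them, at chr1:125178923-125182718, had a median pileup of 1878 and a median background rate (fragments expected at the summit) of 1172, above the medians of every cluster. Since density chose these regions and each arm has 1 library, all values are descriptions and no test was made.

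Most of the clusters were pieces of tandemly repeated DNA, in which a unit is repeated head to tail. Alpha satellite is the repeat of human centromeres, and part of its units carry the CENP-B box, the site of the centromere protein CENP-B. GGAAT satellite is a simple repeat of blocks beside some centromeres. Ribosomal RNA genes are repeated on the short arms of the acrocentric chromosomes, and each encodes a 45S precursor that is cut into 18S, 5.8S and 28S RNA. The U2 genes of chromosome 17 encode the spliceosomal U2 RNA, also in a tandem array. In the hg38 genome used for mapping, centromeric arrays are models. The number of copies in the reference can differ from that in a cell, which was not measured here.

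The sequences below show what each kind of repeat looks like under a peak. They were read from the hg38 reference, so they are not reads of CAL27. For the satellites, the peak with the highest pileup among peaks of at most 300 bp is printed, on the plus strand. In the GGAAT satellite, capitals mark GGAAT or its complement ATTCC, which occurs 13 times in the chromosome 1 peak at chr1:143213095-143213334 and 11 times in the contig peak at KI270709.1:6705-6908.
chromosome 1 GGAAT: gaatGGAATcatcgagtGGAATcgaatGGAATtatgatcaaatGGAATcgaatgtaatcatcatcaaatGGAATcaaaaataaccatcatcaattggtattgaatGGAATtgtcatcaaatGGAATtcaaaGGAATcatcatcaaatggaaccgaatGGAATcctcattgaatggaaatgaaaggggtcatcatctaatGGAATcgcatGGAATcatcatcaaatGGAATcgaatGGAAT
KI270709.1 GGAAT: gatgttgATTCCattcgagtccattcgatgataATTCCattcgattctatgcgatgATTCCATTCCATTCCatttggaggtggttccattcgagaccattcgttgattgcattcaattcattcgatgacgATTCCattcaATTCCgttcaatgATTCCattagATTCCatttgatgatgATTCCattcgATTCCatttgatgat

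In the alpha satellite peaks, capitals mark a CENP-B box, searched as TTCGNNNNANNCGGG on both strands. The peaks are chr1:124673105-124673326, chr5:49630857-49631050, chr19:27183535-27183734, chr14:17363936-17364129 and GL000226.1:6594-6853. The first 3 of these held 1 box each and the others none.
chromosome 1 alpha: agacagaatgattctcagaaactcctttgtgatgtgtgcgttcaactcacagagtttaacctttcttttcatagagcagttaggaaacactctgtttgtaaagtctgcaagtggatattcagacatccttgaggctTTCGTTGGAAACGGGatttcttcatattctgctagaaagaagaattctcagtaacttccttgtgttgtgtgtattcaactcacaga
chromosome 5 alpha: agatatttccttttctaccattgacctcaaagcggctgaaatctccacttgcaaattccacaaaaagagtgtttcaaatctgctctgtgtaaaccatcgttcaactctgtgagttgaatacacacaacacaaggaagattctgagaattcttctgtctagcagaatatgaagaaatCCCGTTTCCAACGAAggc
chromosome 19 alpha: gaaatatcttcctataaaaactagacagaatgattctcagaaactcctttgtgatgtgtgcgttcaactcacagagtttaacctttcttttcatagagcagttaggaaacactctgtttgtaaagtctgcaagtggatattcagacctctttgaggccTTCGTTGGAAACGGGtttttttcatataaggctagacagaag
chromosome 14 alpha: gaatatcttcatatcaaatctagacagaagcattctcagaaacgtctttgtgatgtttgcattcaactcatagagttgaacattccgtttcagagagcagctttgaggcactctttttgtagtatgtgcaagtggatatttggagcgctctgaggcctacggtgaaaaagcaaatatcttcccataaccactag
GL000226.1 alpha: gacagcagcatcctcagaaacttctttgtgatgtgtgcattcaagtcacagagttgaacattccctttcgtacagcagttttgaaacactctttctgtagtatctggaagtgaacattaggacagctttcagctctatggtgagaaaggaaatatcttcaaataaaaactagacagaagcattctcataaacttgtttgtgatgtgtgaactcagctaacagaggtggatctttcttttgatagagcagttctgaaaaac

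The gene arrays were shown around the summits that the results below turn on. For the U2 genes, the upstream and the downstream summit of highest fold enrichment are given with 100 bases on either side on the minus strand, which is the gene strand, at chr17:43290582-43290782 and chr17:43277792-43277992. Capitals mark GGGCGG, the GC box, in both and also the octamer ATGCAAAT in the upstream window. For the ribosomal RNA gene, the stretch of 28S at GL000220.1:114671-114879 is given on the plus strand with capitals at CACGTG, the E-box that MYC and related factors read.
U2 upstream: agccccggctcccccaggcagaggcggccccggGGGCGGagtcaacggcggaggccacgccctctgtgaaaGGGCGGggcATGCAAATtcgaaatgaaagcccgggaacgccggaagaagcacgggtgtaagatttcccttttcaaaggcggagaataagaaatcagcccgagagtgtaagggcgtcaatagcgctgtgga
U2 downstream: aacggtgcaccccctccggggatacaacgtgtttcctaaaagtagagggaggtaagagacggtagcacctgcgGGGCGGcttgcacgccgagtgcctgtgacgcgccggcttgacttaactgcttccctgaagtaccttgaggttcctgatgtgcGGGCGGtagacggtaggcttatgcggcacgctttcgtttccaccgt
28S: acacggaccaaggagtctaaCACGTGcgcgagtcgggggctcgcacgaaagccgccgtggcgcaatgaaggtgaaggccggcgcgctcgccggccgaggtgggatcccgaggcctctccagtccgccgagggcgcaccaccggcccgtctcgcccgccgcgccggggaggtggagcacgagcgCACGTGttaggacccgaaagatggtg

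Pileup, the number of ChIP fragments over a summit, was higher in the clusters than outside, while fold enrichment over the local background was lower. Cluster peaks had a median pileup of 60.5 (8 to 2630), and the 1553 peaks outside had a median of 13 (7 to 8146). The median fold enrichment was 3.76 (1.37 to 11.5) in the clusters and 5.18 outside. The background rate, recovered from each peak's pileup and fold enrichment as the fragments expected at the summit, had a median of 17.9 (0.927 to 1153) in the clusters and 1.56 (0.927 to 2408) outside. With every cluster given the same weight, the cluster median was 10.7. The measures are tied by arithmetic, and over a low rate a peak needs a higher fold enrichment to pass the caller's q-value limit. A fold enrichment of at least 5 was reached by 61 of the 280 cluster peaks (21.8%, Wilson 95% interval 17.4 to 26.98%), against 52.5% of all 1900 peaks and 873 of the 1553 outside (56.2%).

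The clusters held most of the strong background in the table. Of the 220 peaks with a background rate of at least 10, 170 lay in a cluster, as did 168 of the 215 peaks with a pileup of at least 50. The clusters carried 52.2% of the summed pileup on these sequences and 49.5% of the summed excess of pileup over background rate. Of the 100 peaks of highest pileup 75 lay in clusters, of the 10 highest 5 did, and of the 100 of highest fold enrichment 3 did. The highest pileup in the table, 8146, and the highest background rate, 2408, were those of a peak outside the clusters. Of the 280 cluster peaks 1 (0.357%), in the chromosome 5 cluster at 48.01 Mb, was within 0.1% of the lowest background rate in the table. Of the 1553 peaks outside 54 were (3.48%), and of all 1900 peaks 116 were (6.11%). The median rate was above the outside median of 1.56 in 26 of the 29 clusters. It was also above the median of the outside peaks within 10 Mb in 21 of the 25 clusters on chromosomes.

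**Figure D1:**
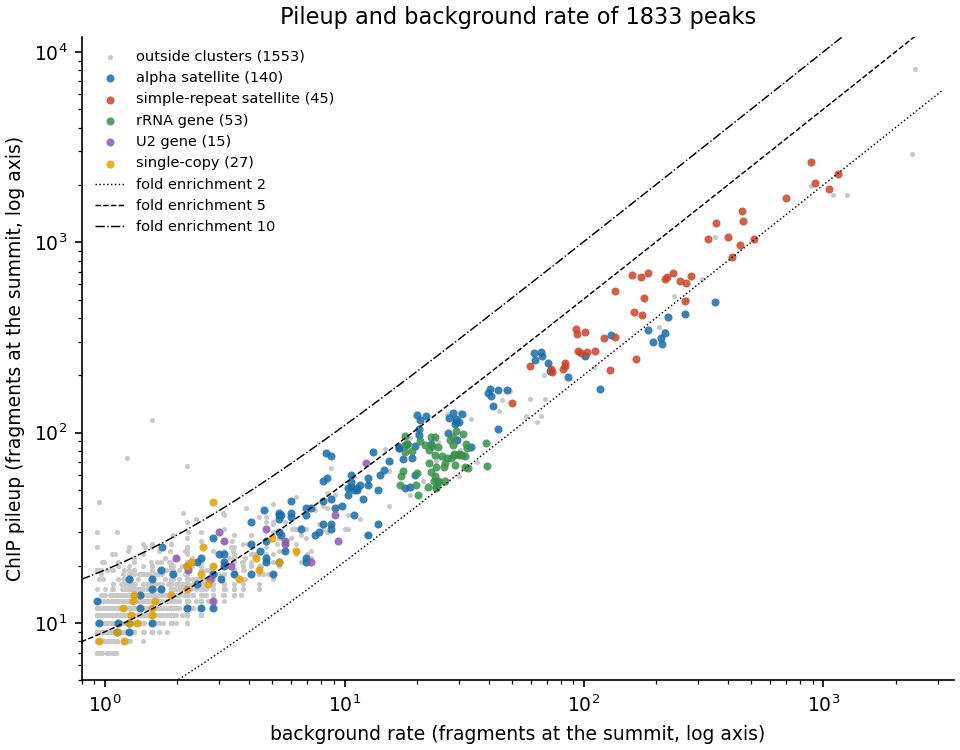
ChIP pileup (vertical, log axis) against background rate (horizontal, log axis) for the 1833 peaks, with the 280 cluster peaks coloured by the repeat they lie in and the 1553 others in grey; lines give fold enrichments of 2, 5 and 10. The simple-repeat (GGAAT) satellite peaks lie toward the upper right, with pileups of 143 to 2630 and no fold enrichment of 5.

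Repeated sequence separated most clusters from other peaks. A peak was counted as mostly repeated where over 50% of its 31-base words occur at 2 or more places of the reference. This held for 253 of the 280 cluster peaks (90.4%, 86.3 to 93.3%) and for 234 of the 1553 others (15.1%). Median GC content was 39.7% in the clusters, 64.5% outside and 39.6% in the 234 mostly repeated peaks outside. Those 234 had a median pileup of 18, a median fold enrichment of 4.59 and a median rate of 2.83. Of them 91 (38.9%) reached a fold enrichment of 5. By sequence, the clusters fell into alpha satellite (17 clusters, 140 peaks), GGAAT satellite (2 clusters, 45 peaks), ribosomal RNA genes (4 clusters, 53 peaks), U2 genes (1 cluster, 15 peaks) and single-copy DNA (5 clusters, 27 peaks). Each cluster was named by the median of its peaks, and 2 peaks counted with alpha satellite were GGAAT repeat themselves. By position, 18 clusters were centromeric or pericentromeric, within 5 Mb of a block of alpha-like repeats. A further 4 were on gene-dense arms, 1 was a tandem gene array away from a centromere, 4 were on contigs and 2 were elsewhere on an arm. The 2 chromosome 21 clusters of ribosomal RNA genes counted as pericentromeric, at 0.157 and 0.340 Mb from a short block of 0.133 Mb. The longest block of that chromosome, of 2.05 Mb, lay farther off, at chr21:10865001-12915000.

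Background rate differed widely between these groups. The median rate was 175 in GGAAT satellite, 24.5 in ribosomal RNA genes, 10.4 in alpha satellite, 3.35 in the U2 genes and 2.20 in the single-copy clusters. Median fold enrichment ran from 2.68 in GGAAT satellite and 2.66 in ribosomal RNA genes to 4.23 in alpha satellite, 4.83 in the U2 genes and 5.004 in the single-copy clusters. The count of peaks with a fold enrichment of at least 5 was 0 of 45, 1 of 53, 39 of 140, 7 of 15 and 14 of 27 in the same order. These are 0%, 1.89%, 27.9%, 46.7% and 51.9%, against 52.5% of all 1900 peaks, so no group exceeded the share over all peaks. In that order, a typical 31-base word of a peak occurred, as an exact match, at 40, 8, 2046, 13 and 1 places of the reference. High pileup and high background rate went together, and a peak over a high rate needs a high pileup to be called. The part of copy number in either was not tested.

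**Figure D2:**
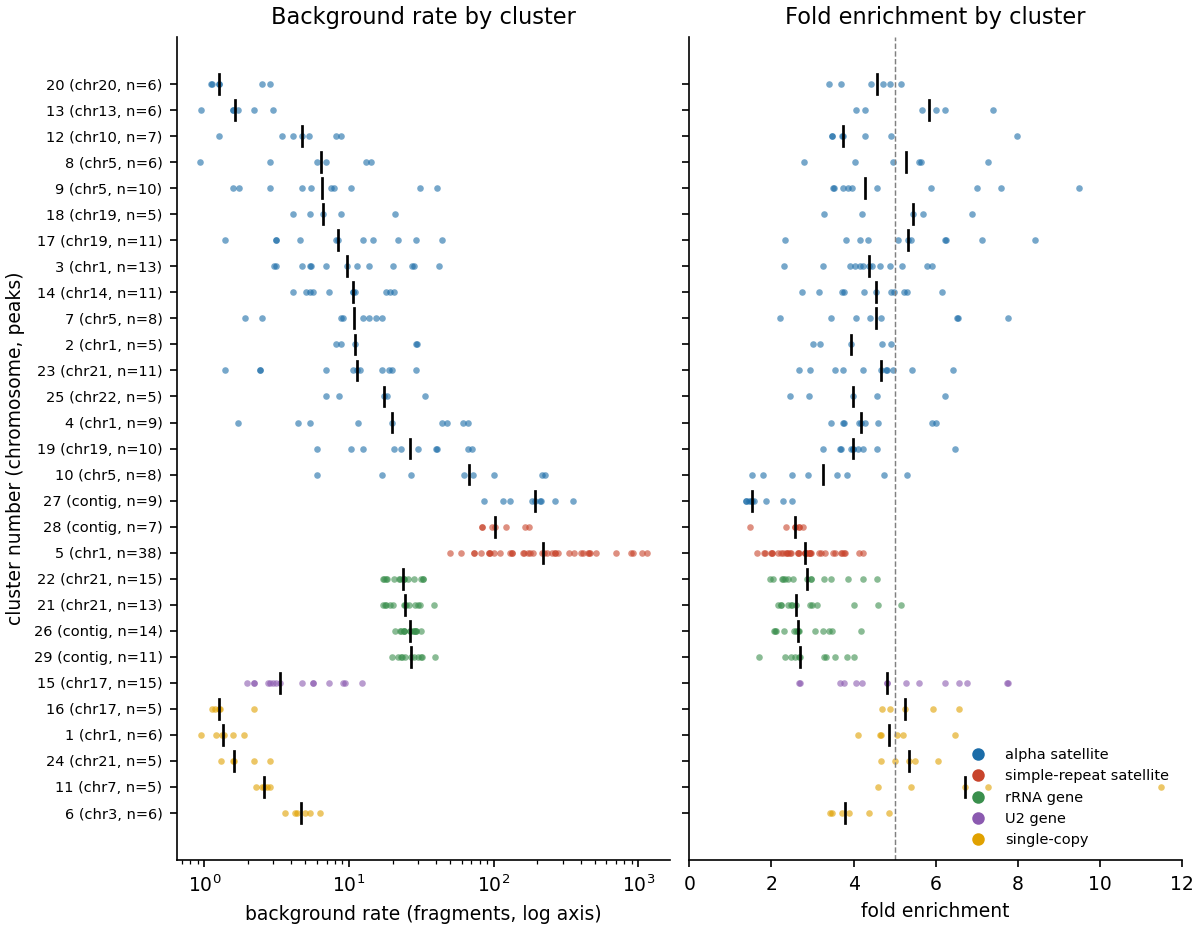
Background rate (left, fragments, log axis) and fold enrichment (right) of every peak, 1 line per cluster, with the cluster's median as a black bar and the dashed line at a fold enrichment of 5; clusters are numbered 1 to 29 in genome order, contigs last. Median fold enrichment was at least 5 in 7 clusters and under 5 in 22.

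The GGAAT satellite of chromosome 1 was the cluster with the most peaks and the highest pileup. It spanned chr1:143185170-143266903 with 38 peaks in 81.7 kb, and gaps between neighbours had a median of 1082 bp. Pileups ran from 143 to 2630 with a median of 646.5, and the rates ran from 50.2 to 1153 with a median of 220. Its highest pileup of 2630 (exact Poisson 95% interval 2530 to 2732, counting error only) stood over a rate of 886, which gives a fold enrichment of 2.97. No peak of it passed 4.22. The region lay 18.1 Mb from the nearest alpha-like block, but only 0.118 Mb from it when the unknown bases (N) of the reference were not counted. The deposited annotation called all 38 peaks intergenic.

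The contig KI270709.1 held the other GGAAT cluster, with 7 peaks over 12.7 kb. Pileups were 224 to 415, the median rate was 103 and the median fold enrichment was 2.57. Of its 31-base words 45.1% also occurred in the chromosome 1 cluster. All 45 peaks of both clusters had GGAAT in the window of 100 bp either side of the summit, with a median of 10 occurrences per window. The median was also 10 in 112 windows of the same length, taken every 500 bp along the arrays wherever no summit lay within 500 bp. The shortest shift at which the sequence around the summits matched itself close to its best was 26 bases in 32 of the 38 peaks on chromosome 1 and in all 7 on the contig. CACGTG and GGGCGG occurred in none of the 45 summit windows. The 2 clusters together held 66.3% of the pileup summed over all cluster peaks.

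The 17 alpha satellite clusters lay on chromosomes 1, 5, 10, 13, 14, 19, 20, 21 and 22 and on the contig GL000226.1. Their median pileups ran from 10 on chromosome 20 to 315 on GL000226.1, their median rates from 1.26 to 195, and their median fold enrichments from 1.53 to 5.84. Peaks were narrow, and none had a promoter in the deposited annotation.

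Alpha satellite sorted into 5 sets by shared words, where clusters were put in 1 set when at least 10% of the words of either were in the other. The largest set joined 10 clusters and 85 peaks on chromosomes 1, 5 and 19. Around 81 of the 85 peaks the shortest shift with a self-match close to the best was 340 bases, and a typical word occurred at 2660 places of the reference. Its median fold enrichment was 4.24 and 27 of its 85 peaks reached 5. The chromosome 5 cluster at 49.48 Mb ended in 2 peaks of another kind, at chr5:49658356-49658768 and chr5:49659481-49659932, with 23 and 21 occurrences of GGAAT in the summit window and a match of 71.9% and 72.7% at a shift of 5 bases. Their pileups of 333 and 406 stood over rates of 217 and 225, with fold enrichments of 1.53 and 1.80. The highest pileup among the other 83 peaks of the set was 264, over a rate of 66.2 with a fold enrichment of 3.94, in the chromosome 19 peak printed above. The highest fold enrichment of any alpha satellite peak, 9.50, was also on chromosome 5, in the cluster at 48.84 Mb, at a pileup of 25 over a rate of 1.74.

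Another set joined chromosomes 14, 21 and 22 and the contig GL000226.1, with 4 clusters and 36 peaks. Between these 4 clusters 41.7 to 91.5% of the words of one were found in another. GL000226.1, with 9 peaks in 13.8 kb, matched itself at 98.8% of bases at a shift of 1364 bases. It had the lowest fold enrichments of all clusters, with a median of 1.53 and a highest value of 2.50, at pileups of 169 to 486 and rates of 85.4 to 352. The 3 clusters on chromosomes shared words with it, yet had median rates of 10.7, 11.3 and 17.6 and median fold enrichments of 4.54, 4.68 and 3.98. Within this set, the fold enrichment was low where the rate, which enters it as the divisor, was high.

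The clusters of chromosomes 10, 13 and 20 each stood alone. Chromosome 13, at 17.87 Mb, had the highest median fold enrichment of the alpha satellites at 5.84, with pileups of only 10 to 23 over a median rate of 1.64, and 4 of its 6 peaks reached 5. Chromosome 20, at 27.92 Mb, had the lowest pileups, 9 to 12, with a median fold enrichment of 4.58. Chromosome 10, at 40.59 Mb, had pileups of 17 to 33, and 1 of its 7 peaks, with 7.97, passed 5. The chromosome 19 cluster at 26.44 Mb ranked next to chromosome 13, with a median fold enrichment of 5.45 over 5 peaks.

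**Figure D3:**
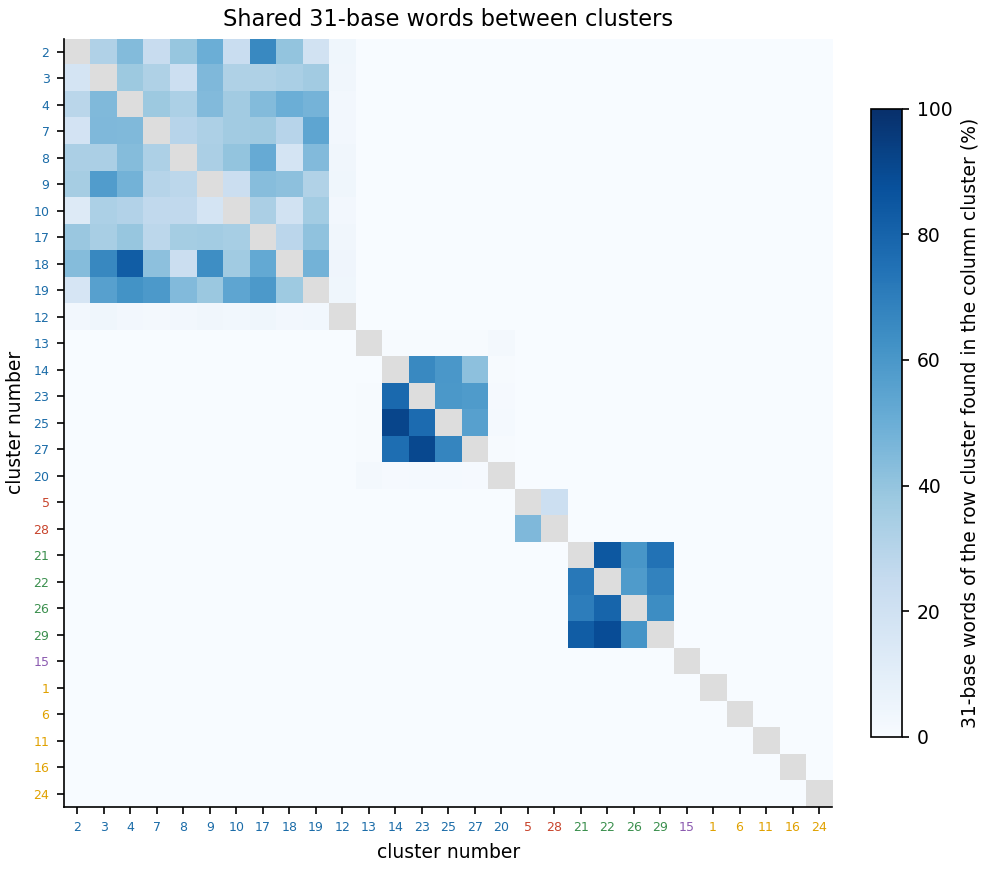
Share of the 31-base words of each cluster (rows) that also occur in each other cluster (columns), from 0 to 100%, clusters numbered in genome order and grouped by repeat. The large block joins alpha satellite of chromosomes 1, 5 and 19, the smaller ones join alpha satellite of chromosomes 14, 21, 22 and a contig, the 2 GGAAT clusters and the 4 ribosomal RNA clusters, and no 2 clusters of different sets shared over 4.29%.

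The CENP-B box occurred near the summit of 61 of the 140 alpha satellite peaks (43.6%). In 7453 windows of the same length along the arrays it occurred in 46.7%, so summits did not hold it more often than the arrays. Where a box was present, the nearest lay at a median of 44 bp from the summit, and 38 of the 61 lay within 50 bp. Boxes were sought only within 100 bp, and no such distance was taken in the array windows, so a closeness to summits is not shown. Over all clusters 21.8% of summit windows held the box, against 4.70% of the other peaks and 0.914% of 27561 windows spaced over the genome. Of the 234 mostly repeated peaks outside clusters 73 held it (31.2%), and 0 of the 1319 mostly single-copy ones did. The box was thus not particular to the clusters. CACGTG was found in 3.57% of alpha satellite summit windows, against 11.1% of array windows, and GGGCGG in none of either.

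The 4 ribosomal RNA clusters covered 8 copies of the ribosomal RNA gene, each placed by its 18S entry. The symbols RNA18SP3, RNA18SP4 and RNA18SP5 among these entries are those of pseudogenes. The bounds of the 45S transcript and its parts were taken from the copy of RNA18SN5 and applied to all copies. They lay at chr21:8206372-8260728, chr21:8389437-8458441, GL000220.1:107454-161740 and KI270733.1:121957-179689, with 13, 15, 14 and 11 peaks. Their values were alike, with median pileups of 66 to 84, median rates of 23.5 to 26.8 and median fold enrichments of 2.60 to 2.88. Since a word of these peaks occurred at a median of 8 places, which is the number of copies, a read of 1 copy can match the others, and the 8 copies are not replicates of each other.

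Peaks recurred at the same places of the gene. Of the 53 peaks, 48 lay inside the 45S transcript and 5 outside it. By region, 20 lay in 28S (median fold enrichment 3.44), 14 in 18S (2.65), 11 in the 5′ external transcribed spacer (2.48), 3 in the intergenic spacer (2.07), 2 upstream of the transcript (2.41), 2 in the internal spacer 2 (2.02) and 1 in the internal spacer 1 (2.23). Positions are counted from the start of 18S. The most regular site, at 5609 to 5806 bases in 28S, had a peak in all 8 copies, with pileups of 80 to 102 and fold enrichments of 3.25 to 5.16 (median 3.94). A site at 7985 to 8091 bases in 28S had a peak in 7 copies (2.88 to 4.23, median 3.55), and a site at 1196 to 1357 bases in 18S had one in 7 copies (2.40 to 4.60, median 2.97). The highest fold enrichment of a copy was at the site near 5.8 kb in 3 copies, at the site near 8.0 kb in 4 and in 18S in 1, the copy of RNA18SP5.

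The E-box was placed narrowly within the transcript. CACGTG occurred at 16 places within the 45S bounds of the 8 copies, all in 28S, at 5594 to 5779 bases. All 16 lay inside a peak of the site near 5.8 kb. A copy thus held a pair of them, as in the 28S sequence printed above. Within 100 bp of the summit it was found in all 8 peaks of that site. None of the 7 peaks of the site near 8.0 kb or of the 7 at 1196 to 1357 bases in 18S held it. Of all 53 summit windows, 10 held the E-box. Among them were the intergenic spacer peaks at 11586 and 21158 bases, outside the transcript. Their fold enrichments were 1.69, the lowest of the 53 peaks, and 3.44. Since the copies share most words, the peaks of a site are not separate observations. GGGCGG was found in 20 of the 53 summit windows, among them all 7 of a site in the 5′ external transcribed spacer at a median of -2983 bases, where the median fold enrichment was 2.41. A match describes the letters only, and a role in the pileup was not tested.

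**Figure D4:**
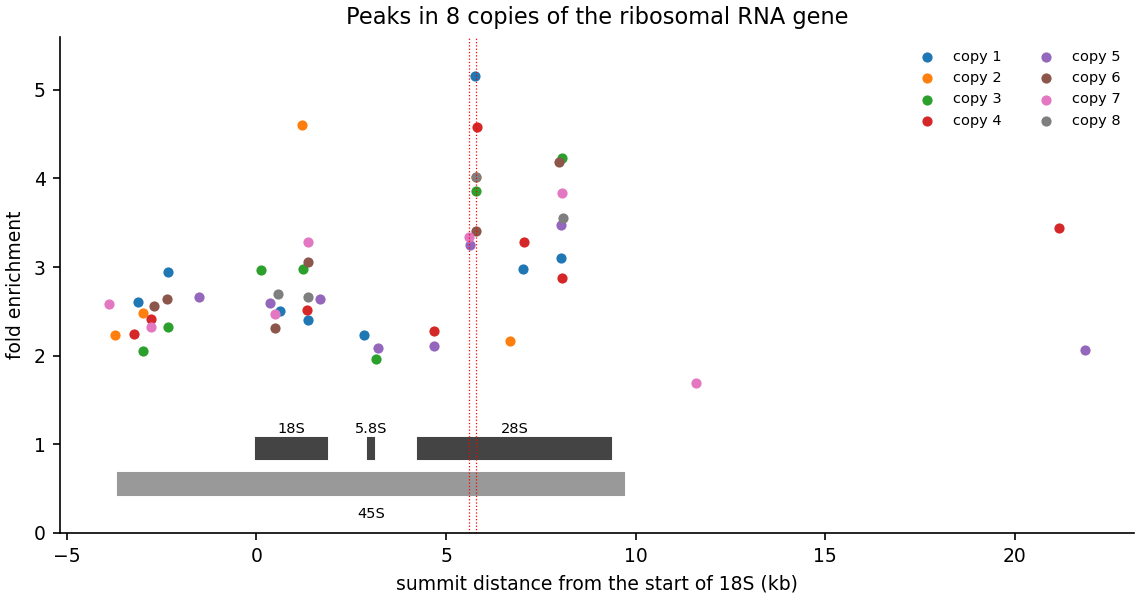
Fold enrichment of the 53 peaks against the distance of the summit from the start of 18S (kb), coloured by copy, with the 45S transcript and its 18S, 5.8S and 28S parts as bars; dotted lines give the outer positions of the E-boxes in 28S. The 8 peaks near 5.8 kb lie between 3.25 and 5.16, above every peak of the 5′ spacer.

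The U2 cluster lay at chr17:43239700-43300827, with 15 peaks in 61.1 kb. The array in the annotation had 13 U2 genes of 191 bases on the minus strand, spaced 1259 to 14804 bp apart (median 5505 bp), and 12 of them were the nearest gene of a peak. The exception was RNU2-1 (ENSG00000274585), which lay outside the cluster and had no peak. Pileups were 13 to 69 with a median of 26, rates were 1.98 to 12.2 and fold enrichments 2.67 to 7.76. A median rate of 3.35 stood against 1.32 for the 32 outside peaks within 10 Mb. A typical word of these peaks occurred at 13 places, the number of genes. A read of any of the genes can thus match the others, and the genes and their peaks are not replicates of each other.

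Peaks fell on both sides of the short gene. Downstream of the start and past the gene end lay 8 peaks (median fold enrichment 5.75), upstream lay 6 (4.13), and 1 lay in the gene (4.80). Of the 8 downstream peaks, 6 had their summits 226 to 276 bp from the gene start, which is 35 to 85 bp past the gene end, with fold enrichments of 4.83 to 7.76 (median 6.39). The other two, at 395 and 507 bp, had 3.76 and 2.69. The peak of highest pileup, at chr17:43251663-43252297, was among the 6, with 69 fragments (exact Poisson 95% interval 53.7 to 87.3) over a rate of 12.2 and a fold enrichment of 5.29. The deposited annotation placed this peak in an intron of LINC00854, where GENCODE v44 has the protein-coding gene CCDC200. The highest fold enrichment was 7.76, at a pileup of 30 over a rate of 2.99.

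The GC box lay in most summit windows of the U2 array and the E-box in none. A match to GGGCGG was found in the summit window of 11 of 15 peaks (73.3%), 7 of the 8 downstream and 4 of the 6 upstream, and CACGTG in none. GGGCGG was also found in 49.8% of the peaks outside clusters and in 2.92% of 27561 windows over the genome. Since the genes are copies, the 15 windows are not separate observations. The octamer ATGCAAAT, known from the enhancer of small nuclear RNA genes and looked up after the sequences had been seen, occurred before all 13 genes, at 219 to 225 bases upstream of the start. It lay inside a peak for 4 genes and in the summit window of 2 of the 6 upstream peaks. In 27561 windows over the genome it occurred in 1.96%, and in 0.773% of the peaks outside clusters.

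**Figure D5:**
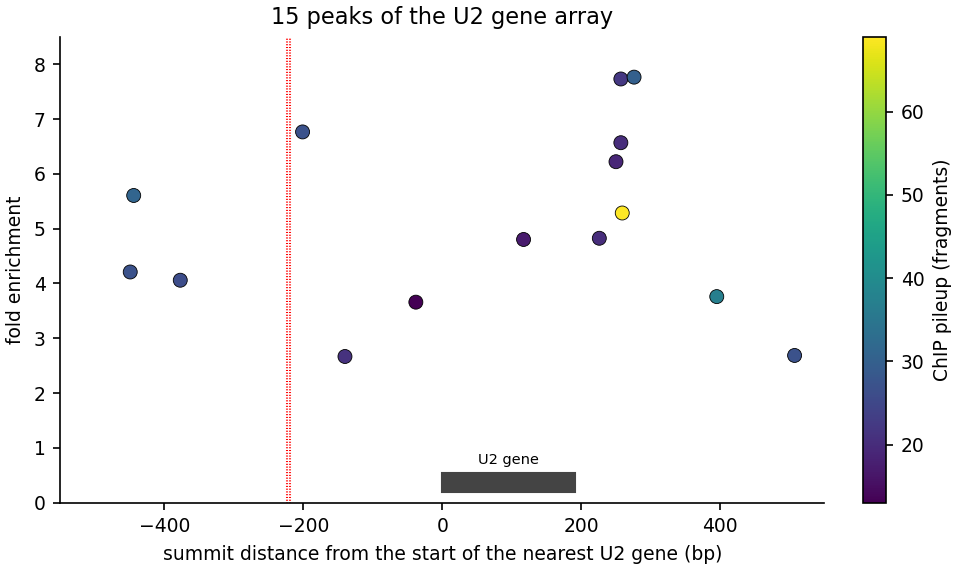
Fold enrichment of the 15 U2 peaks against the distance of the summit from the start of the nearest U2 gene (bp, gene strand), coloured by ChIP pileup; the bar is the gene of 191 bases and dotted lines mark the octamer. Of the 15 summits, 6 lie at 226 to 276 bp, with fold enrichments of 4.83 to 7.76, in genes that share most of their words.

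The 5 single-copy clusters had no mostly repeated peak. A total of 4 lay on gene-dense arms and 1, on chromosome 3, elsewhere on an arm. Of their 27 peaks 12 had a promoter in the deposited annotation, 8 had CACGTG (29.6%) and 13 had GGGCGG (48.1%) near the summit. Mostly single-copy peaks outside clusters had 25.5% and 57.9%. Their median pileup of 15, fold enrichment of 5.004 and rate of 2.20 lay near the 12, 5.23 and 1.44 of those outside peaks.

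Chromosome 7, at chr7:873352-1065812, had the highest median fold enrichment of any cluster, 6.72 over 5 peaks. Its strongest peak, 43 fragments (31.1 to 57.9) over a rate of 2.83 and a fold enrichment of 11.5, lay in the 3′ UTR of SUN1, which encodes a protein of the inner nuclear membrane. The next, at chr7:876120-876394, lay in the promoter of GET4, which acts in the insertion of tail-anchored proteins, where 25 fragments gave a fold enrichment of 7.27. The GET4 peak is printed because it held CACGTG 5 times, a tandem run of E-boxes, of which 4 lay in its summit window. Capitals mark CACGTG and, once, the complement of the GC box.
GET4 promoter: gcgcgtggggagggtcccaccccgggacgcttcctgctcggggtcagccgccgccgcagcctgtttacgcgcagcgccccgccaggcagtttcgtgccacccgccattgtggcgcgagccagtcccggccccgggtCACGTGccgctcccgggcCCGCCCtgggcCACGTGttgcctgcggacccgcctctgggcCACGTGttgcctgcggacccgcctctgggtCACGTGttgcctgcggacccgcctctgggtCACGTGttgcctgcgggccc

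The other 3 peaks of that cluster had fold enrichments of 4.60 to 6.72. They lay in the promoter of COX19, a factor of cytochrome c oxidase assembly (5.41), and in introns of C7orf50 (6.72 and 4.60). The rates of the 5 peaks ran from 2.27 to 2.83, and the outside peaks within 10 Mb had a median of 2.54.

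Chromosome 17, at chr17:75667196-75723631, held 5 peaks in 56.4 kb with a median fold enrichment of 5.26. The peak of highest pileup, 20, lay in an intron of ITGB4, the integrin β4 subunit of hemidesmosomes, with a fold enrichment of 6.57. At the ITGB4 promoter, 12 fragments gave a fold enrichment of 5.93, with the summit 1 bp from the annotated start. The others were at the shared start region of RECQL5, a DNA helicase, and SAP30BP (4.70) and in introns of SAP30BP (5.26 and 4.88). CACGTG was found in none of the 5 and GGGCGG in 3.

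Chromosome 21, at chr21:43659325-43868769, held 5 peaks with a median fold enrichment of 5.35. The highest pileup, 20, was at the 5′ UTR exon of RRP1, a ribosome biogenesis gene, with a fold enrichment of 5.49. The highest fold enrichment, 6.06 at a pileup of 13, lay at the start of HSF2BP and in the promoter of RRP1B, a relative of RRP1. The remaining peaks lay in an intron of PDXK, the pyridoxal kinase (5.004), in an intron of AGPAT3 (5.35), and 8031 bp downstream of the start of CSTB, the cystatin B gene (4.67).

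Chromosome 1, at chr1:1250962-1462659, held 6 peaks with the lowest pileups of the gene-dense clusters, 8 to 14, over rates of 0.942 to 1.88. A pileup of 14 was reached by 2 peaks, in an exon of the non-coding gene AL162741.1 (6.47) and in an intron of UBE2J2, a ubiquitin-conjugating enzyme gene (5.20). Promoter peaks were those of ACAP3 with PUSL1 (4.66), INTS11 with CPTP (4.10) and MRPL20, a mitochondrial ribosomal protein gene (5.06). The remaining peak lay in an intron of ATAD3C (4.63).

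Chromosome 3, at chr3:157082580-157175141, differed from the other single-copy clusters in its rate. Its 6 peaks had rates of 3.63 to 6.28, with no overlap with the 0.942 to 2.83 of the 21 gene-dense peaks, and no fold enrichment above 4.86. The 18 outside peaks within 10 Mb had a median rate of 3.62, also above the gene-dense peaks. The highest pileup, 28 with a fold enrichment of 4.86, lay at the promoter of LINC00881 in an intron of LINC00880, both long non-coding RNA genes. At CCNL1, which encodes cyclin L1, 1 peak lay in the 5′ UTR exon (3.47) and 1 in the promoter (4.38).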

How the data were processed

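The authors filtered reads with Trimmomatic, mapped them with BWA to hg38, removed PCR duplicates with Samtools, called peaks with MACS2 at a q-value of 0.05 on the anti-MYC library against the input, and annotated them. The deposited pileup is a signal, the ChIP fragments over a summit. The deposited fold enrichment is the ratio of pileup to local background rate, each plus 1. The deposited -log10 q-value gives the caller's adjusted significance for each peak. Read totals, and how reads matching several places were treated, are not given in the sources used here, so depth is unknown, and intervals cover counting error only.

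For each peak, 1 was added to the pileup, the sum was divided by the fold enrichment and 1 was taken off to get the background rate. Members, lists and groupings were chosen with earlier results of these data known. Peaks were joined as described in the report. Places of all 31-base words were counted in hg38, both strands, leaving out alternate contigs, in Python 3.11.15 with numpy 2.4.6, pandas 2.3.3, numba 0.67.0 and pysam 0.24.0. Alpha-like blocks were runs of at least 100 kb in which 1000 bp windows matched themselves at 45% or more when shifted by the length of an alpha satellite unit. The shift reported around a summit is the shortest, up to 2000 bases, whose match came within a small margin of the best, so a longer shift may match slightly better. The E-box CACGTG, the GC box GGGCGG, the satellite motif GGAAT and the CENP-B box were searched on both strands within 100 bp of the summit, beside windows every 100000 bp over the genome and every 500 bp along the arrays. Word counting and repeat finding were tested on simulated sequence. The repeat names were given after the sequences were seen. Gene positions came from GENCODE v44, where 201 of 220 gene entries of cluster peaks were found on the same chromosome, 190 of them with the same start. Clusters described in full were the 3 with the most peaks, the highest pileups and the highest median fold enrichments, every gene array and every gene-dense cluster, and the genes named are those annotated at their peaks. No test was made. Alternatives were joining rules, peak thresholds, word lengths, distances and motif windows.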

Additional observations from a re-analysis of the deposited data

How the results depend on the processing

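No paired analysis was possible because each group has 1 library and no replicate number, and for the same reason no library could be left out. The number of clusters, 29, was 46 with a joining gap of 200000 bp, 11 with 20000 bp, 45 with at least 4 peaks, 12 with at least 10 peaks and 2 when peaks under a fold enrichment of 5 were dropped before joining. The peaks in clusters, 280, were 444, 123 and 172 with gaps of 200000 bp, 20000 bp and at least 10 peaks, and 14 with the fold limit. Their share, 15.3%, was 10.5%, 24.2% and 6.71% at gaps of 50000, 200000 and 20000 bp, 18.8%, 13.6% and 9.38% with at least 4, 6 and 10 peaks, and 1.499% with the fold limit. The 2 clusters left by the fold limit lay in the U2 array and in alpha satellite of chromosome 19. Of the 46 groups at 200000 bp, 23 held none of the clusters described. Weighting clusters equally gave a median pileup of 45, fold enrichment of 4.27, background rate of 10.7 and share at the lowest rate of 0%; without the chromosome 1 GGAAT cluster these were 52, 4.02 and 12.1. The share of mostly repeated peaks fell to 69.3% when a word had to occur at 10 or more places, since a typical word of the ribosomal RNA peaks occurs at 8. With unknown bases not counted, a comparison added after seeing the data, 1 cluster in place of 2 lay elsewhere on an arm. Within 50 bp of the summit 5.36% held CACGTG, 11.4% had the GC box GGGCGG, 45.7% had GGAAT and 11.1% the CENP-B box, and over the whole peak 24.6% held GGGCGG and 74.6% held GGAAT. Without the 2 GGAAT peaks of the chromosome 5 cluster, also added after seeing the data, alpha satellite had a median fold enrichment of 4.25 and rate of 10.05. The other 43 comparisons moved a count by at most 1.5 times or stayed inside its 95% interval.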
